A study of Mus musculus with 6 samples.

Results

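The genes of the large families that write, erase and read marks on chromatin, or move nucleosomes, were followed on Affymetrix Mouse Genome arrays of Wwox KO and WT mammary epithelium. Members were all genes whose platform symbol begins with Kdm, Kmt2, Setd, Smarc, Arid, Chd, Hdac, Kat, Brd, Ezh, Dnmt or Tet in the form the families use, on a probe set that carries 1 gene symbol. They were 99 genes of the 18193 on the array, with 253 probe sets. Membership used no measured value, but the families were chosen with earlier results of these data known. The split of probe sets into the brightest of each gene and its others used the measured means over all 6 arrays. The KO arrays (KO5, KO6 and KO7) held RNA of 3 Wwox flox/flox mice that carried the BK5-cre transgene, in which the bovine keratin 5 promoter drives Cre in epithelial precursors. The WT arrays (WT1, WT2 and WT3) held RNA of 3 Wwox flox/flox mice without Cre, so an effect of Cre itself and the loss of Wwox cannot be told apart. All 6 mice were 8 weeks old, on a mixed background of 129/J and C57BL/6, and each gave 1 array of RNA from mammary organoids, pieces of duct and alveolus that survive enzymatic digestion of the gland. All values are the deposited log2 values, made with RMA, and a difference of 1 on this scale is 2-fold.

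DNA methyltransferases of the Dnmt family place methyl groups on cytosine, and Tet dioxygenases oxidise them. Histone methyltransferases (Ezh, Kmt2, Setd) and demethylases (Kdm) set the methylation of histone tails, acetyltransferases (Kat) and deacetylases (Hdac) set their acetylation, and bromodomain proteins (Brd) bind acetylated lysines. CHD and SMARC ATPases slide or evict nucleosomes, and ARID proteins bind DNA, several of them as subunits of SWI/SNF or Sin3 complexes.

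A probe set was called when its unadjusted p in limma was under 0.01 and its change was at least 2-fold. Of the 253 probe sets of these families, 18 were called higher in KO and 0 lower. The 18 belonged to 14 genes, among them the H3K27 demethylase Kdm6b, the DNA-binding protein Arid5b, the NuRD ATPase Chd4, the H3K4 demethylase Kdm5a and the de novo DNA methyltransferase Dnmt3a. That is 7.11% called higher, against 1.69% of all 45037 probe sets tested, while 0.3% of all probe sets were called lower. These shares were not matched for level, whose median was 7.05 over the member probe sets and 5.45 over all tested. All 18 lay on probe sets other than the brightest of their gene, the brightest being the one with the highest mean over the 6 arrays. Low WT values lower that mean, so the split is not independent of the changes called. In KO alone a called probe set read higher than the brightest on Kdm6b (mean 11.69 against 11.24), Kdm5a (8.59 against 8.42) and Dnmt3a (8.04 against 7.83). Of the 99 brightest probe sets, 0 were called in limma, and at an unadjusted p under 0.05 14 (14.1%) had higher and 14 (14.1%) had lower KO means, against 6.17% and 13.0% of the brightest probe sets of all genes. The same split was seen across the array, where 0.517% of the brightest probe sets of all genes were called higher and 0.462% lower, against 3.19% and 0.179% of the other probe sets of those genes. Of the 154 other probe sets of the chromatin families, 11.7% were called higher. After adjustment over the whole array 0 of the 253 passed 0.05, against 0.222% of all probe sets, with the smallest adjusted p of a member at 0.05004 in limma.

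The medians moved less than the calls. The median change was 0.02 over the 99 brightest probe sets and 0.09 over the 154 others, against -0.06 and -0.01 over the corresponding probe sets of all genes. In the 71 genes with several probe sets, the mean change of the other probe sets exceeded that of the brightest by a median of 0.21, with a positive difference in 46 genes (64.8%). Over the 9010 genes of the array with several probe sets the median was 0.08, and 61.0% were positive. On 46 of the 253 probe sets (18.2%) every KO array lay above every WT array, against 10.7% over the array. On 33 (13.0%) every KO array lay below every WT array, against 13.6%. Among the brightest alone the counts were 9 above (9.09%) and 16 below (16.2%), both near the 7.2% and 16.1% of the brightest probe sets of all genes.

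**Figure D1:**
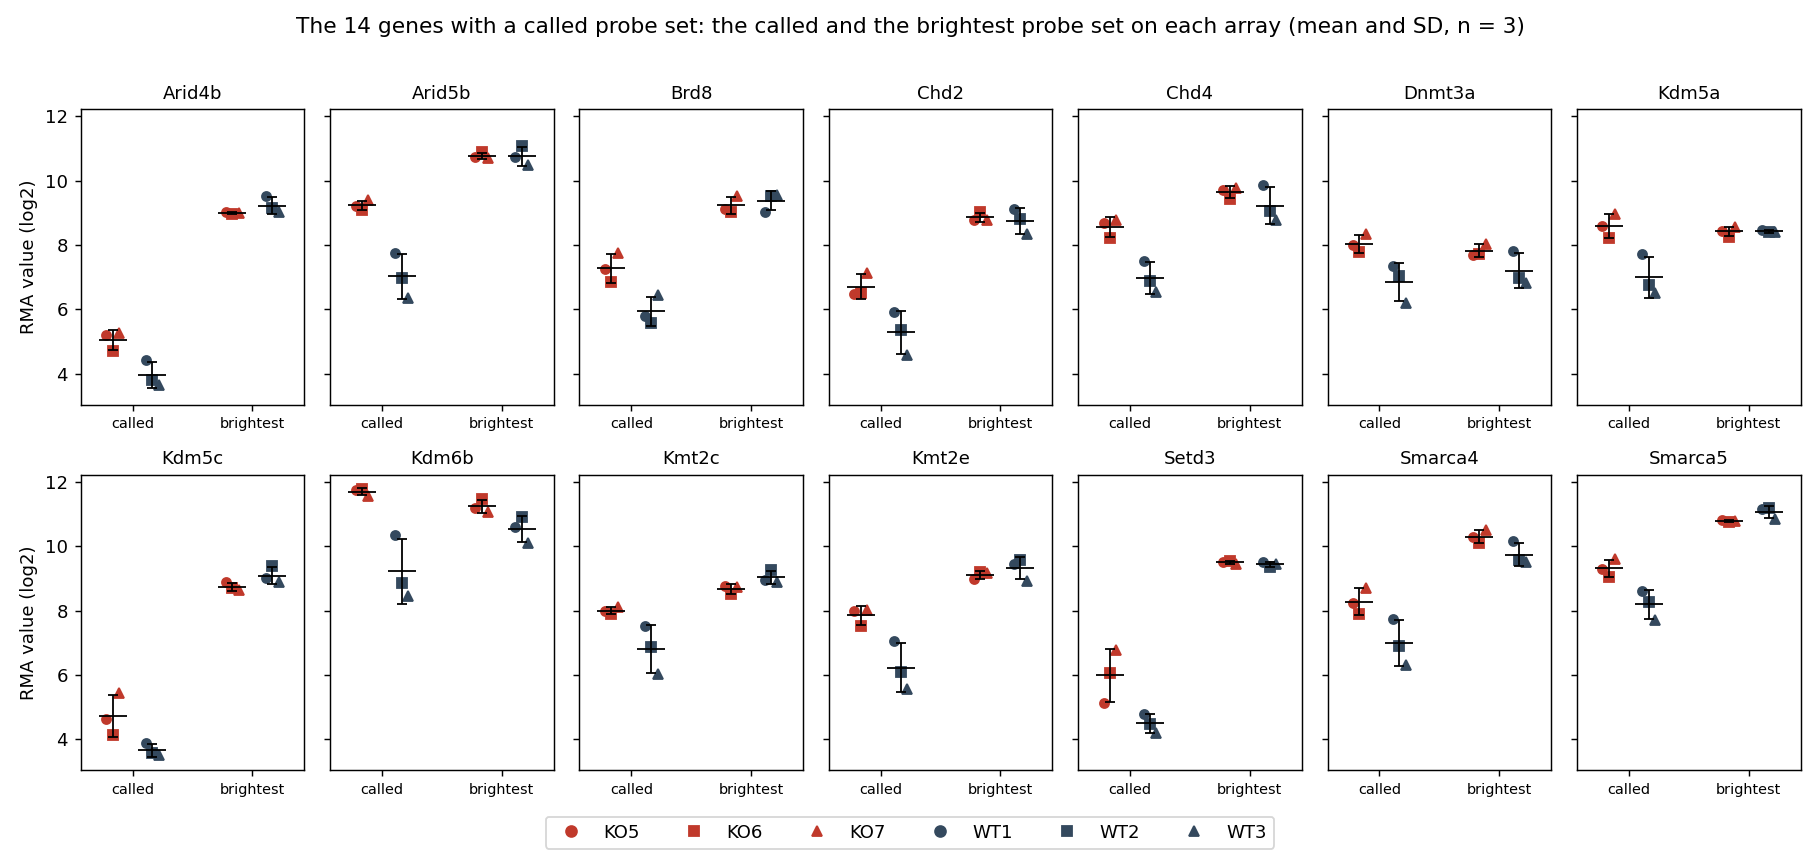
Log2 RMA value (y axis) of the called and the brightest probe set of the 14 genes with a call, on each KO (red) and WT (blue) array, with the group mean and SD (n = 3). Where a gene had 2 called probe sets the one with the larger change is drawn. The KO arrays lie above the WT arrays on all 14 called probe sets, while the brightest probe sets changed by between -0.37 and 0.70.

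The called changes had a median of 1.32 and ran between 1.07 and 2.48, with adjusted p between 0.05004 and 0.127. The brightest probe sets of the same 14 genes had a median change of 0.00, between -0.37 and 0.70, and 7 were positive and 7 negative. The remaining 31 probe sets, in 9 of these genes, had a median of 0.17, between -0.46 and 0.85. Genes with a call had a median of 4.5 probe sets each (2 to 9), against 2 (1 to 7) for the other 85 genes. The positions of the probe sets within their genes were not used here.

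Wwox itself read 6.23, 5.87 and 5.96 in KO and 7.77, 7.63 and 7.72 in WT on its brightest probe set, a change of -1.69 ± 0.13 (SE, adjusted p = 0.0228 in limma). Control transcripts are probed at both ends, and their 3' minus 5' difference separated the groups. For Gapdh it was 0.40, 0.56 and 0.46 in KO and 0.95, 2.41 and 1.79 in WT, and for β-actin 0.71, 0.63 and 0.63 in KO and 0.98, 1.85 and 1.82 in WT. With that difference as a covariate 0 of the 18 rises were called. Their changes then had a median of 0.68, between 0.29 and 1.34, and 5 were still 2-fold or more, on Brd8 (1.34 and 1.12), Arid5b (1.30), Kdm6b (1.15) and Setd3 (1.11). On the whole array 137 probe sets were called higher and 179 lower in that fit. The covariate itself separated the groups, so that fit cannot tell it apart from genotype. A call can then be lost with little change in size. Of the markers of other cells, none of 13 lymphocyte markers was called, although all had lower KO means, and their mean level was 5.42 to 6.59 over the KO arrays and 5.78 to 7.85 over the WT arrays. Of 18 macrophage and dendritic cell markers 2 were called lower and all had lower KO means (6.88 to 7.92 in KO, 7.25 to 8.53 in WT), and of 15 endothelial markers 4 had a probe set called higher, 3 of them the brightest, and all had higher KO means (9.54 to 10.05 in KO, 8.82 to 9.42 in WT). Of 15 fibroblast markers 2 were called higher and 12 had higher KO means (10.13 to 10.96 in KO, 10.13 to 10.38 in WT), and of 8 adipocyte markers 1 was called higher, on 2 probe sets other than the brightest (7.90 to 8.08 in KO, 7.50 to 8.44 in WT). The luminal epithelial markers were present throughout, averaging 12.11 to 12.32 in KO and 11.94 to 12.24 in WT, with 0 of 14 called. The basal ones averaged 9.79 to 10.005 in KO and 9.62 to 9.87 in WT, with 2 of 13 called higher. Of the brightest probe sets of all genes, 0.517% were called higher and 0.462% lower, and 38.8% had higher KO means. Of the other probe sets of all genes, 3.19% were called higher and 0.179% lower. The part of RNA quality and of cell composition in the results was not tested, and in such bulk samples fewer cells of a type cannot be told apart from less RNA per cell.

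WT1 stood nearest to the KO arrays on the called probe sets. It was the highest WT array on 16 of the 18 called probe sets, and WT3 was the lowest on 16. That order was not particular to these families. Of all 759 probe sets called higher over the array, WT1 was the highest WT array on 645 and WT3 the lowest on 440. Over the 18, the median deviation from the mean of the 6 arrays was 0.61 in KO5, 0.41 in KO6 and 1.04 in KO7, against -0.13 in WT1, -0.71 in WT2 and -1.24 in WT3. Over the 99 brightest it stayed between -0.05 and 0.06 in the KO arrays and between -0.17 and 0.13 in the WT arrays, where WT2 (0.05) lay inside the KO range and WT1 (0.13) above it. The WT spread was the larger on 13 of the 18, with a median SD of 0.31 in KO and 0.54 in WT. WT1 also had the lowest 3' minus 5' difference of the WT arrays. The part of that difference in the rises was not tested. The count of member rises was 10 without KO5, 20 without KO6, 6 without KO7, 27 without WT1, 8 without WT2 and 10 without WT3. Over the whole array the rises numbered 531, 786, 567, 1358, 481 and 606 in the same order, against 759 with all arrays. Against WT1 alone 5 member probe sets were called higher, and 277 on the whole array.

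**Figure D2:**
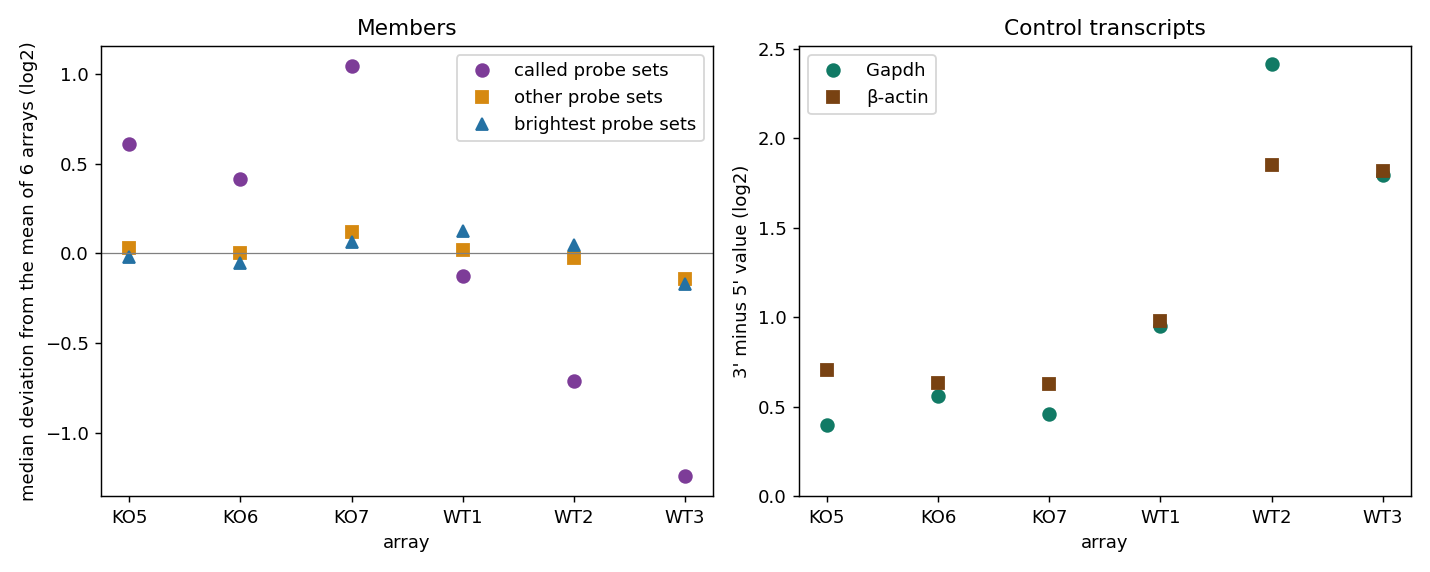
Left, for each array, the median over the 18 called, the 154 other and the 99 brightest member probe sets of the deviation from the mean of 6 arrays (log2). Right, the 3' minus 5' value (log2) of Gapdh and β-actin on the same arrays. The called probe sets run between 0.41 and 1.04 in KO and between -1.24 and -0.13 in WT, and WT1 is the WT array nearest to KO for the called probe sets and for both control transcripts.

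Among the histone demethylases, 4 of 37 other probe sets (10.8%) and 0 of 18 brightest were called higher. Over all genes 3.19% of other and 0.517% of brightest probe sets were called higher. So 0 calls among the few brightest of a family is near the share over the array, here and in the families below. Kdm6b (Jmjd3) removes methyl groups from H3K27, the mark that the polycomb complex places. Its called probe set 1456610_at read 11.74, 11.77 and 11.56 in KO and 10.34, 8.86 and 8.44 in WT, a change of 2.48 ± 0.44 (SE, 5.56-fold, adjusted p = 0.0602). The KO arrays lay close together, while WT1 stood well above WT2 and WT3. The second called probe set, 1442643_at, read 8.00, 7.48 and 7.80 in KO and 6.50, 6.11 and 5.70 in WT, a change of 1.66 ± 0.22 (SE, adjusted p = 0.05004). On the brightest, 1447612_x_at, the values were 11.18, 11.45 and 11.08 in KO and 10.60, 10.90 and 10.11 in WT, with a difference of 0.70 (adjusted p = 0.141) that had the same sign and no overlap. The ending _x marks probes that can also match other transcripts. Without such probe sets and those ending in _s, 1456610_at became the brightest of Kdm6b and 1 of the 18 calls then lay on a brightest probe set.

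Kdm5a, Kdm5b and Kdm5c remove methyl groups from H3K4, the mark of active promoters. Kdm5a read 8.59, 8.23 and 8.95 in KO and 7.73, 6.76 and 6.52 in WT on 1452360_a_at, a rise of 1.59 ± 0.33 (SE, 3.01-fold, adjusted p = 0.0726). Its brightest probe set, 1437105_at, read 8.44, 8.26 and 8.57 in KO and 8.48, 8.40 and 8.40 in WT and gave a difference of 0.00. The other probe sets of Kdm5a spread in both directions, with 0.85 on 1437106_at, where every KO array lay above every WT array, and -0.46 on 1445541_at, where every KO array lay below. Kdm5c had the most probe sets of the called genes, 9, of which 1 was called. That one, 1457930_at, read 4.64, 4.13 and 5.43 in KO and 3.88, 3.59 and 3.51 in WT (1.07 ± 0.31 SE, adjusted p = 0.127), while the brightest read 8.87, 8.69 and 8.65 in KO and 8.999, 9.38 and 8.88 in WT (-0.35, adjusted p = 0.277). Both probe sets kept the groups apart, in opposite directions. The called one averaged 4.20 over the 6 arrays, below the median of 5.45 over all probe sets tested. The Kdm5c call was lost without KO5 (1.12), KO7 (0.73), WT1 (1.18), WT2 (1.04) or WT3 (0.996). Kdm5b had no call, but its brightest probe set read 8.88, 9.08 and 9.38 in KO and 8.61, 8.38 and 7.89 in WT (0.82, adjusted p = 0.109), with -0.09, 0.02 and 0.28 on its other probe sets. The Y-linked Kdm5d differed by -0.25 to -0.05 on 3 probe sets. These averaged 3.77, 3.61 and 2.85 over the 6 arrays, all below that median of 5.45.

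Kdm1b and Kdm4c gave 2 of the 6 largest falls among brightest probe sets. Kdm1b (Lsd2), which demethylates H3K4, read 6.90, 6.55 and 6.99 in KO and 7.35, 7.65 and 7.74 in WT on its only probe set, a difference of -0.77 ± 0.16 (SE, adjusted p = 0.076). Kdm4c, which demethylates H3K9, read 7.23, 7.35 and 7.52 in KO and 7.78, 7.94 and 7.78 in WT (-0.47, adjusted p = 0.105). The groups did not overlap in either, and neither difference reached 2-fold. The H3K27 demethylase Kdm6a was not called either, with -0.19 on its brightest probe set and 0.93 and 0.69 on 2 others.

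In the histone methyltransferases, 3 of 25 other probe sets and 0 of 17 brightest were called. Kmt2e (Mll5) carries a PHD finger that binds H3K4 methylation, and its 1439108_at read 7.99, 7.52 and 8.03 in KO and 7.05, 6.08 and 5.55 in WT, a rise of 1.62 ± 0.36 (SE, 3.07-fold, adjusted p = 0.0812). The brightest of Kmt2e differed by -0.20 with overlapping groups. The Kmt2e call was lost without KO5 (1.55), KO7 (1.53) or WT2 (1.54), and without WT1 a further probe set, 1427236_a_at, was called at 1.07. Kmt2c (Mll3), which methylates H3K4 at enhancers, read 7.97, 7.91 and 8.11 in KO and 7.53, 6.86 and 6.03 in WT on 1427150_at (1.19 ± 0.34 SE, adjusted p = 0.126). On its brightest, 1434179_at, it read 8.77, 8.50 and 8.73 in KO and 8.96, 9.26 and 8.89 in WT (-0.37, adjusted p = 0.218). The groups were apart on both, in opposite directions. The Kmt2c call was lost without KO5 (1.20), KO6 (1.23), KO7 (1.13), WT2 (1.21) or WT3 (0.80), so that it held only without WT1.

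Setd3, known as an actin histidine methyltransferase, read 5.13, 6.07 and 6.77 in KO and 4.79, 4.48 and 4.20 in WT on 1440163_at, a rise of 1.49 ± 0.38 (SE, 2.82-fold, adjusted p = 0.104). The KO arrays spread more than the WT arrays here. This probe set averaged 5.24 over the 6 arrays, below the median of 5.45 over all probe sets tested. On the brightest the values were 9.52, 9.53 and 9.45 in KO and 9.51, 9.36 and 9.44 in WT, a difference of 0.07. The Setd3 call was lost without KO6 (1.45), KO7 (1.11), WT2 (1.49) or WT3 (1.35). Setd6, which methylates the NF-kB subunit RelA, had the lowest change of the 99 brightest probe sets. It read 6.75, 6.74 and 6.83 in KO and 7.39, 7.90 and 7.61 in WT, a difference of -0.86 ± 0.15 (SE, adjusted p = 0.057), and its other probe sets gave -0.64 and -0.26. Every KO array lay below every WT array on all 3 probe sets of Setd6. The H3K9 methyltransferase Setdb2 read 6.70, 6.89 and 6.85 in KO and 7.78, 7.33 and 7.17 in WT (-0.61, adjusted p = 0.122). Setd5 was split between its probe sets, at 0.76 (adjusted p = 0.144) on the brightest and -0.57 and 0.60 on the others, each with the groups apart. Without WT1 the brightest of Setd5 was called at 1.02. Kmt2b (Mll2), which methylates H3K4 at promoters, differed by 0.60 on its brightest (adjusted p = 0.221). Of the catalytic subunits of the polycomb complex, Ezh2 read 7.71, 8.11 and 8.23 in KO and 8.33, 8.37 and 8.29 in WT (-0.31, adjusted p = 0.316), and Ezh1 differed by 0.18 on its brightest probe set and by 0.68, -0.17 and -0.11 on the others.

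Of the DNA methylation genes, Dnmt3a, which methylates unmethylated DNA, was the only one with calls, 2 among the 11 other probe sets of the family and 0 among its 7 brightest. Probe set 1423066_at read 8.01, 7.78 and 8.33 in KO and 7.34, 7.04 and 6.20 in WT (1.18 ± 0.29 SE, adjusted p = 0.0995). Probe set 1423065_at read 6.74, 6.74 and 7.29 in KO and 6.06, 5.75 and 5.53 in WT (1.14 ± 0.20 SE, adjusted p = 0.059). The groups stood apart on both. The brightest, 1423063_at, read 7.71, 7.73 and 8.05 in KO and 7.82, 6.98 and 6.83 in WT (0.62, adjusted p = 0.249), with WT1 inside the KO range, and the remaining probe sets gave -0.19 and 0.26. The call on 1423066_at was lost without KO5 (1.19), KO7 (1.03), WT2 (1.27) or WT3 (0.85), and that on 1423065_at only without KO7 (0.96).

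The maintenance enzyme Dnmt1 read 9.69, 9.96 and 10.13 in KO and 9.61, 9.11 and 8.94 in WT on 1422946_a_at (0.70, adjusted p = 0.128), and its other probe sets, the brightest included, gave 0.12 and 0.19. Both of the latter end in _x, so their probes can also match other transcripts. Dnmt3b, the second de novo enzyme, gave -0.30 and 0.10, and its inactive partner Dnmt3l gave 0.20. Tet2 read 8.80, 8.78 and 8.82 in KO and 8.64, 8.34 and 7.94 in WT on its brightest (0.49, adjusted p = 0.192) and differed by 0.74 on the other (adjusted p = 0.221). The groups stood apart on both Tet2 probe sets without a call. Tet1 lay between -0.13 and 0.08 on 4 probe sets and Tet3 at 0.34 on 1.

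In the ARID proteins 2 of 16 other probe sets and 0 of 9 brightest were called. Arid5b, which binds DNA and partners with the demethylase Phf2, read 9.22, 9.09 and 9.39 in KO and 7.74, 6.99 and 6.35 in WT on 1420973_at. The change was 2.21 ± 0.32 (SE, 4.62-fold, adjusted p = 0.05004), the second largest of these families. On the brightest, 1434283_at, it read 10.73, 10.89 and 10.69 in KO and 10.74, 11.07 and 10.48 in WT, a difference of 0.01, and 1442176_at gave -0.02. So the groups of Arid5b were well apart on 1420973_at and overlapped on the brightest. Arid4b, a subunit of the Sin3 deacetylase complex, read 5.20, 4.70 and 5.26 in KO and 4.42, 3.81 and 3.66 in WT on 1431024_a_at (1.09 ± 0.23 SE, adjusted p = 0.0785), with -0.23 on its brightest and 0.17 to 0.53 on the remaining 4. The called probe set of Arid4b averaged 4.51 over the 6 arrays, below the median of 5.45 over all probe sets tested. That call was lost without KO5 (1.01), KO7 (0.98), WT2 (1.01) or WT3 (0.93). Its relative Arid4a gave -0.56 on the brightest (7.16, 6.82 and 7.13 in KO and 7.98, 7.41 and 7.41 in WT, adjusted p = 0.17) and 0.79 and 0.20 on the others, and 1456420_at was called at 1.17 without WT1.

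The CHD remodelers had 3 calls on 13 other probe sets and 0 on 10 brightest. Chd4 is the ATPase of the NuRD complex, which joins remodeling with deacetylation. On 1438476_a_at it read 8.68, 8.22 and 8.78 in KO and 7.51, 6.89 and 6.54 in WT (1.58 ± 0.26 SE, 2.99-fold, adjusted p = 0.0559). On 1436343_at the change was 1.24 ± 0.31 (SE, adjusted p = 0.0986), with values of 8.64, 8.38 and 9.04 in KO and 7.97, 7.58 and 6.80 in WT. The groups did not overlap on these probe sets. On the brightest, at 9.72, 9.43 and 9.78 in KO and 9.87, 9.05 and 8.77 in WT, WT1 lay above all the KO arrays and the difference was 0.41 (adjusted p = 0.458). The call on 1436343_at was lost without KO5 (1.26), KO7 (1.06), WT2 (1.30) or WT3 (0.91). Chd2, a remodeler found at active genes, read 6.47, 6.52 and 7.15 in KO and 5.93, 5.35 and 4.59 in WT on 1445843_at (1.42 ± 0.34 SE, adjusted p = 0.0932), with 0.10 on its brightest. The Chd2 call was lost without KO7 (1.20) or WT2 (1.45).

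Among the SMARC remodelers 2 of 18 other probe sets and 0 of 13 brightest were called, and the median of the brightest, -0.28, was the lowest of the 9 families. Smarca4 (Brg1), an ATPase of SWI/SNF, read 8.24, 7.89 and 8.71 in KO and 7.74, 6.90 and 6.31 in WT on 1426805_at (1.30 ± 0.36 SE, adjusted p = 0.124). Its brightest read 10.28, 10.10 and 10.52 in KO and 10.16, 9.56 and 9.50 in WT (0.56, adjusted p = 0.198). Both ran the same way, with WT1 reaching into the KO range on the brightest. The Smarca4 call was lost without KO5 (1.31), KO6 (1.49), KO7 (1.08), WT2 (1.25) or WT3 (0.96). Smarca5 (Snf2h), the ATPase of ISWI complexes, read 9.30, 9.05 and 9.59 in KO and 8.61, 8.26 and 7.70 in WT on 1424207_at (1.12 ± 0.25 SE, adjusted p = 0.0795). Its brightest, at 10.80, 10.74 and 10.78 in KO and 11.16, 11.19 and 10.84 in WT, differed by -0.29 (adjusted p = 0.274). Here too the groups were apart on both probe sets in opposite directions, and the other probe sets gave -0.25 and 0.34. The Smarca5 call was lost without KO7 (0.98) or WT3 (0.88).

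The bromodomain proteins had 2 calls on 13 other probe sets and 0 on 6 brightest. Both were on Brd8, a subunit of the NuA4/Tip60 acetyltransferase complex. Their size was nearly the same with the 3' minus 5' covariate, without a call. The first, 1427193_at, read 7.25, 6.85 and 7.75 in KO and 5.78, 5.59 and 6.44 in WT (1.35 ± 0.28 SE, 2.55-fold, adjusted p = 0.076), and the second, 1452350_at, read 8.33, 7.61 and 8.91 in KO and 7.08, 7.05 and 7.34 in WT (1.13 ± 0.30 SE, adjusted p = 0.113). On these 2 probe sets WT3, and not WT1, was the highest WT array. The brightest of Brd8 differed by -0.14, and 1451137_a_at by -0.04. The call on 1452350_at was lost without KO5 (1.10), KO7 (0.81), WT1 (1.09) or WT2 (1.07). Brd2, a BET protein that binds acetylated histones, had the highest change of the 99 brightest probe sets. It read 10.95, 10.99 and 11.10 in KO and 10.73, 10.06 and 9.39 in WT, a difference of 0.95 ± 0.30 (SE, adjusted p = 0.155), and its other probe set gave 0.32. The groups did not overlap on the brightest, and without WT1 it was called at 1.28.

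The acetyltransferases and deacetylases had no call on any probe set, which is near the 1.69% of all probe sets called higher. Of 21 acetyltransferase probe sets, 3 had higher and 1 had lower KO values with an unadjusted p under 0.05 in limma, against 9.54% and 9.74% of all probe sets tested, which is near these counts. One of them exceeded 2-fold, 1422972_s_at of Kat2a, a SAGA acetyltransferase, named here after its values were seen, at 6.81, 6.02 and 6.54 in KO and 6.36, 4.74 and 4.68 in WT (1.19 ± 0.45 SE, adjusted p = 0.21). KO6 lay below WT1 there. Of 19 deacetylase probe sets, the same limit was passed by 3 with higher and 2 with lower KO values, again near the shares over the array. Hdac9, a class IIa deacetylase, read 3.94, 4.23 and 3.74 in KO and 4.91, 4.62 and 4.30 in WT on its brightest (-0.64, adjusted p = 0.139), without overlap, and differed by -0.02 on the other. The brightest of Hdac9 averaged 4.29 over the 6 arrays, below the median of 5.45 over all probe sets tested.

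**Figure D3:**
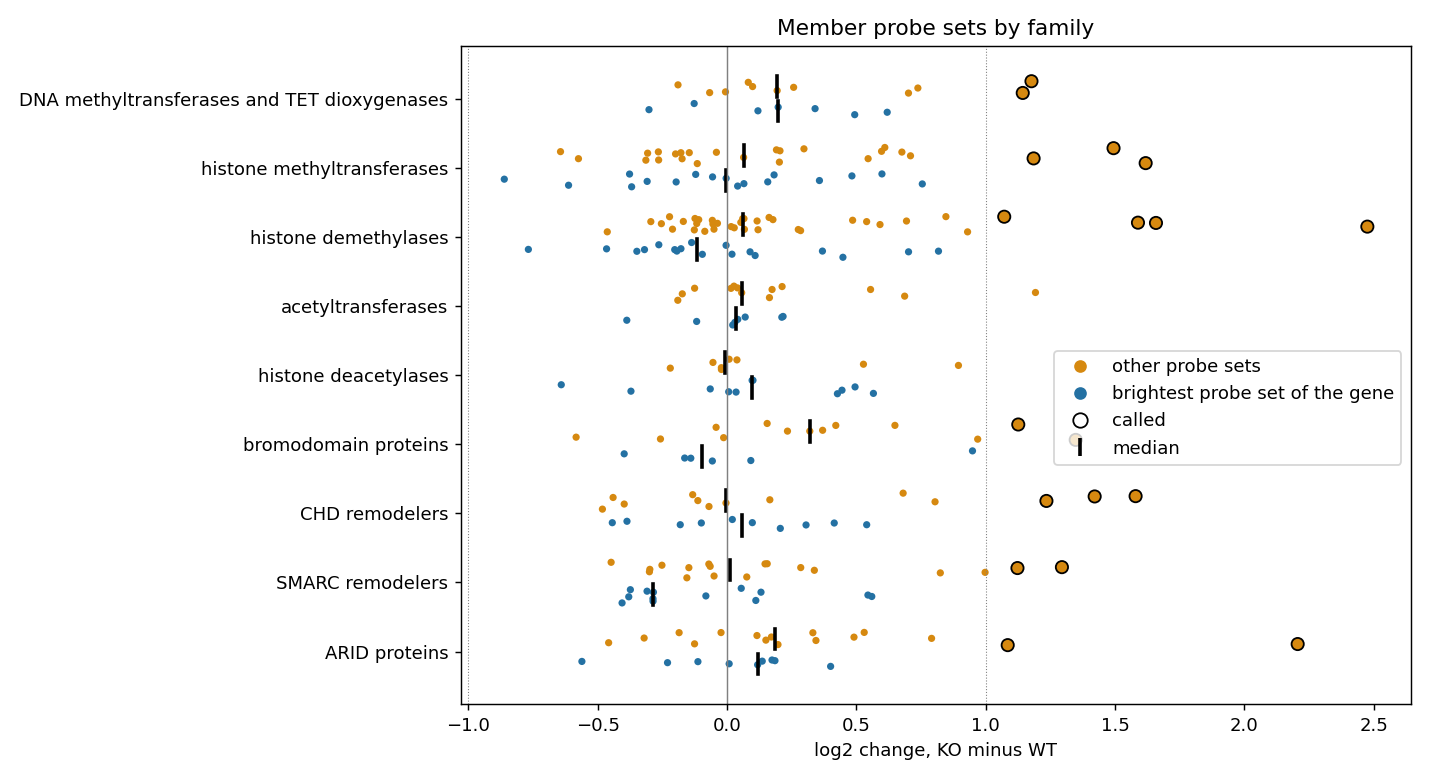
Change of each member probe set (x axis, log2, KO minus WT) in the 9 families, with the other probe sets of each family in orange above the brightest of each gene in blue, called probe sets ringed, and medians as bars. Dotted lines mark a change of 2-fold. All 18 ringed points are orange and lie to the right, in 7 of the 9 families, and no blue point passes a dotted line.

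Among genes with a called probe set, the brightest pointed the other way in 7, Arid4b, Brd8, Kdm5a, Kdm5c, Kmt2c, Kmt2e and Smarca5, although for Kdm5a the brightest was at 0.00 and in these 7 the adjusted p of the brightest was 0.218 or more. With a limit of 1.5-fold in place of 2-fold, 25 of the 253 member probe sets passed higher and 4 lower, against 3.49% and 1.87% of all probe sets. The 4 were the brightest of Setd6, Kdm1b and Setdb2 and a second probe set of Setd6. The additional rises included Smarcc1, a core subunit of SWI/SNF, at 0.998 on 1423417_at with -0.30 and 0.55 on brighter probe sets, and Hdac7, a class IIa deacetylase, at 0.90 on 1420812_at. None of the 22 probe sets ending in _s or _x, whose probes can match several transcripts, was called in limma, and an unadjusted p under 0.05 was reached by 2 in the upward (9.09%) and 3 in the downward direction (13.6%), near the 9.54% and 9.74% over the array.

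Chromatin genes outside the named families were read the same way, in 7 lists with 151 genes. Over all genes 0.517% of brightest and 3.19% of other probe sets were called higher. On the brightest probe sets of these lists 1 was called higher and 0 lower (0.662% higher), and on their 241 other probe sets 18 were called higher and 0 lower (7.47%). The 1 was Rsf1, the partner of Smarca5 in a remodeling complex, at 7.96, 7.57 and 8.28 in KO and 7.40, 6.66 and 6.33 in WT (1.14 ± 0.29 SE). The list of other remodelers held 9 of the 18, among them the heterochromatin ATPase Atrx at 1.62, 1.38 and 1.22 on 3 probe sets and -0.30 on its brightest. Of the acetyltransferase coactivators 3 probe sets in 2 genes were called higher, among them those of Crebbp at 2.01 and 1.08, with 0.03 on its brightest. Of the polycomb and histone chaperone genes, Rbbp4 had both calls, at 1.89 and 1.16, with -0.07 on its brightest. The methyl-DNA readers and heterochromatin proteins had 0 calls on 11 brightest and 19 other probe sets in limma. Of 4 nuclear noncoding RNAs, 3 had a probe set called higher, with 2 of 4 brightest and 6 of 22 other probe sets called. Malat1, which stays in the nucleus, read 13.31, 12.50 and 13.03 in KO and 10.65, 9.03 and 8.11 in WT on its brightest probe set (3.68 ± 0.58 SE), and Neat1, the scaffold of paraspeckles, was higher by 1.32. The brightest probe sets of Meg3 and Kcnq1ot1 differed by 0.9996 and 0.42 without a call. The part of nuclear RNA content in the rises was not tested.

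Promoter sequence was taken for the members from RefSeq (build GRCm38.p6), with 250 bases before and 50 after the start, and 78 of the 99 genes matched. The 13 promoters of 9 genes with a called probe set, some of them overlapping windows of 1 gene, held a median of 32 CpG, against 24 in the 95 promoters of 69 other members and 7 in all 32851 promoters. The other genes with a call, Brd8, Chd2, Kdm5a, Kdm6b and Kmt2e, had no matched promoter and are not in these shares. The GC box GGGCGG, the Sp1 motif, was found on either strand in 10 of the 13 (76.9%), in 65.3% of those of the other members and in 35.7% of all promoters. The CCAAT box, also on either strand, was found in 46.2% of the promoters of genes with a call, 32.6% of those of other members and 37.4% of all. The E box CACGTG was found in 7.69%, 5.26% and 7.15% of the same sets, and the ETS motif CCGGAAG, on either strand, in 0%, 16.8% and 8.86%. The 250 bases before the start are given for 3 genes that carry called probe sets, to show how unlike their promoters are: Kmt2c with the most GC boxes of the windows read, Arid5b with none and the fewest CpG, and 1 of the 3 windows read for Dnmt3a, which lies between them. The other Dnmt3a windows held 4 and 1 GC boxes and 40 and 15 CpG. Capitals mark GC boxes on either strand, and overlapping ones run together. The windows hold 12 GC boxes and 48 CpG in Kmt2c (chr5:25498784-25499033, minus strand), 5 and 38 in Dnmt3a (chr12:3806730-3806979, plus strand) and 0 and 4 in Arid5b (chr10:68278727-68278976, minus strand).
Kmt2c: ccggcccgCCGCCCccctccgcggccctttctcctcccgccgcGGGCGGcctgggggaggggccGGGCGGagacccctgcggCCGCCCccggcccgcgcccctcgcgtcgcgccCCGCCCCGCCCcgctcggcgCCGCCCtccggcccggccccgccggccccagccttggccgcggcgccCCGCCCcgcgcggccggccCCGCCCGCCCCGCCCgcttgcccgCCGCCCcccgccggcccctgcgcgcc
Dnmt3a: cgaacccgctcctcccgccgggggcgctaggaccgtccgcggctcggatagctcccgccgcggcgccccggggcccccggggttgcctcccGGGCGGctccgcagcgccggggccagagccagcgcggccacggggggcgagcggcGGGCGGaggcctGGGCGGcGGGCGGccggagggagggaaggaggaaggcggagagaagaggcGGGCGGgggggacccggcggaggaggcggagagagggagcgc
Arid5b: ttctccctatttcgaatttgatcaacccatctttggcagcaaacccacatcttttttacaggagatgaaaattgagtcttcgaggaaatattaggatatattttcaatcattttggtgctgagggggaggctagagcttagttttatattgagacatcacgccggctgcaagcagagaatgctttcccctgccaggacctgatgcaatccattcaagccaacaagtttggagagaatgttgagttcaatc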

How the data were processed

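RNA of mammary organoids from 3 KO and 3 WT mice was hybridised to 1 array each. The authors had used RMA (its version is not given in the sources used here) for background correction, quantile normalization and summary of each probe set, and deposited the resulting log2 values. No further normalization was applied in the main comparison. The table has 45101 probe sets, 64 of them controls that were not tested. The platform annotation gives 1 symbol for 34945 of the remaining 45037, several for 932 and none for 9160. Genes were named from the first kind only, which left out 4 probe sets with several symbols of which at least 1 met the rule.

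KO was compared with WT with lmFit and eBayes of limma 3.58.1 under R 4.3.3, on all 6 arrays, and all p-values were adjusted by Benjamini and Hochberg over the 45037. The limits, an unadjusted p under 0.01 and at least 2-fold, are those of the methods. Named genes were all with a called probe set, the 6 largest rises and falls among brightest probe sets at an unadjusted p under 0.05, and all Dnmt, Tet and Ezh genes. The members, the gene lists and this rule were chosen with earlier results of these data known. The comparisons with single WT arrays and the promoter counts were added after seeing the data. Figures were drawn in matplotlib 3.10.9. The number of arrays limits the precision.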

Additional observations from a re-analysis of the deposited data

How the results depend on the processing

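The 18 calls higher and 0 lower stayed within 1.5 times of that with array weights, cyclic loess and ribosomal protein centring. They also did with a minimum mean of 6 and with an intensity trend and a robust prior. Leaving out probe sets ending in _s or _x gave the same counts, but none of the 18 carried such an ending. Choosing the brightest by the WT arrays cannot move these counts, and gave medians of 0.02 for the brightest and 0.12 for the others. The counts did not stay within that limit with the 3' minus 5' difference as a covariate, which gave 0 higher and 2 lower. The 2 were Setdb2 at -1.09 and Arid4a at -1.14, both on the brightest, and the brightest probe sets had a median of -0.10. Against WT1 alone 5 were higher and the median of the brightest was -0.12. Against WT2 alone 1 was lower. Against WT3 alone the medians were 0.15 for the brightest and 0.21 for the others. With adjusted p under 0.05 and no fold limit 0 were called, and at 1.5-fold 4 were lower. A minimum mean of 6 kept 15 of the 18 calls, since the called probe sets of Kdm5c, Arid4b and Setd3 lay below it. It gave a median of 0.25 for the other probe sets. Leaving out 1 array at a time gave 6 to 27 calls higher and 0 lower, medians of -0.06 to 0.04 for the brightest and 0.04 to 0.13 for the others, and within-gene medians of 0.15 to 0.22. The calls on Kdm6b, on Arid5b and on 1438476_a_at of Chd4 were lost with the covariate and with adjusted p under 0.05, and under no other setting. With the covariate they were 0.92 and 1.15 for Kdm6b, 1.30 for Arid5b and 0.85 for Chd4. The covariate separated the groups, so that setting cannot tell it apart from genotype.

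The replicate numbers are shared by KO and WT, but they were not taken as pairs in the main comparison. The residuals of same-numbered arrays correlated at -0.155, 0.16 and 0.0994. These were not compared with the other pairs of KO and WT arrays, so they cannot settle whether the arrays were paired. With the replicate block 12 member probe sets were called higher, 11 of them among the 18, while the whole array had 775 called higher against 759. The 7 lost were those of Chd2, Kdm5c, Kmt2c, Setd3 and Smarca4, 1436343_at of Chd4 and 1423066_at of Dnmt3a. Where 1 array stood for WT, it was assumed to vary like the KO arrays. Against WT1, WT2 or WT3 alone, and with the covariate, the cause of the changes was not tested.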
